A study of Triticum aestivum with 6 samples.

Results

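The core histones H2A and H2B are followed here through 4 clusters of related transcripts on the wheat GeneChip. These are Ta.27657 and Ta.29542 for H2A and Ta.7378 and Ta.27708 for H2B. They are not all of the array's core histones, since the gene H2A-3 lies outside them. Every row of the deposited table whose identifier starts with one of these cluster names was taken, which gave 55 probe sets of the 61290 in the table. Cluster Ta.7378 holds 38 of them, Ta.27657 holds 14, Ta.27708 holds 2 and Ta.29542 holds 1. The clusters were chosen by their measured difference between the temperatures on these same 6 arrays. The values of the members in that comparison are therefore a description, and no p-value is given for them. The RNA came from embryos of AC Domain, a bread wheat (Triticum aestivum) cultivar, whose mature seeds had taken up water for 48 h. Up to flowering the mother plants of both groups had days of 22 °C and nights of 18 °C, with light for 16 h and darkness for 8 h. From flowering to maturity they were kept at 13 °C or at 28 °C, and this was the only difference the labels give. Both groups have 3 arrays, called biological replicates in the labels. Nothing in the labels ties a replicate to its own plants or seed lot, so the errors cover only the spread among these arrays, and that spread may be technical. Values are log2 RMA values, and a difference is 13 °C minus 28 °C, so that a negative value means lower in embryos of seeds that developed at 13 °C.

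H2A and H2B are small basic proteins that pair as dimers and, together with H3 and H4, form the nucleosome, the spool on which DNA is wound. Cells make most of their core histones while they copy their DNA, whereas replacement forms are also made outside that phase. Plant histone mRNAs carry poly-A tails. In the dry cereal embryo most cells are arrested before DNA replication, which resumes during and after germination.

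The label of the clusters rests on few members. An old annotation of the platform pairs 16 of the 55 probe sets with a gene, and these are 4 histone genes: H2A-9 (LOC732714, also TH274) on 6, H2A-2 (LOC732712) on 1, wcH2B-8 (LOC543184) on 7 and wcH2B-6 (LOC543183) on 2. No member is paired with any other gene. The other 39 are unnamed here and are called histone only through the cluster they share with a named probe set.

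Background was read from 23 control probe sets for transcripts that were not spiked in. The brightest of them averaged 4.71, a level exceeded by 54.6% of the 61179 tested probe sets. Array medians lay between 4.99 and 5.04. The hybridisation controls averaged 0.63 higher at 13 °C (exact permutation p = 0.1, the smallest that 3 arrays against 3 allow). With the deposited values 15.1% of all tested probe sets were lower at 13 °C past the threshold of limma, a Benjamini-Hochberg adjusted p of 0.05. That share was 19.3% when arrays were scaled on their hybridisation controls and 4.58% when scaled on their poly-A controls. Of the calls, 55.1% were on the higher side with the deposited values, 5.25% with hybridisation control scaling and 6.63% with poly-A scaling.

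All 55 histone probe sets were lower in the embryos of seeds developed at 13 °C. The median difference was -3.56 and the range ran from -7.56 to -0.44, against a median of 0.062 over all tested probe sets. In each of the 55 the 3 arrays at 13 °C lay below the 3 arrays at 28 °C, as they did for 18.7% of all tested probe sets. The limma threshold was passed by 55 of 55, where 15.1% of all tested probe sets were lower, and 50 of 55 were also at least 2-fold lower, where 5.62% of all were. These shares describe the members and support nothing further, since the same contrast chose the clusters. With single arrays left out 53 to 55 members passed, and with poly-A scaling 49 did. The plot of every array shows the members in order of their difference. In these bulk samples, fewer cells that make histones and less histone mRNA per cell cannot be told apart.

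**Figure D1:**
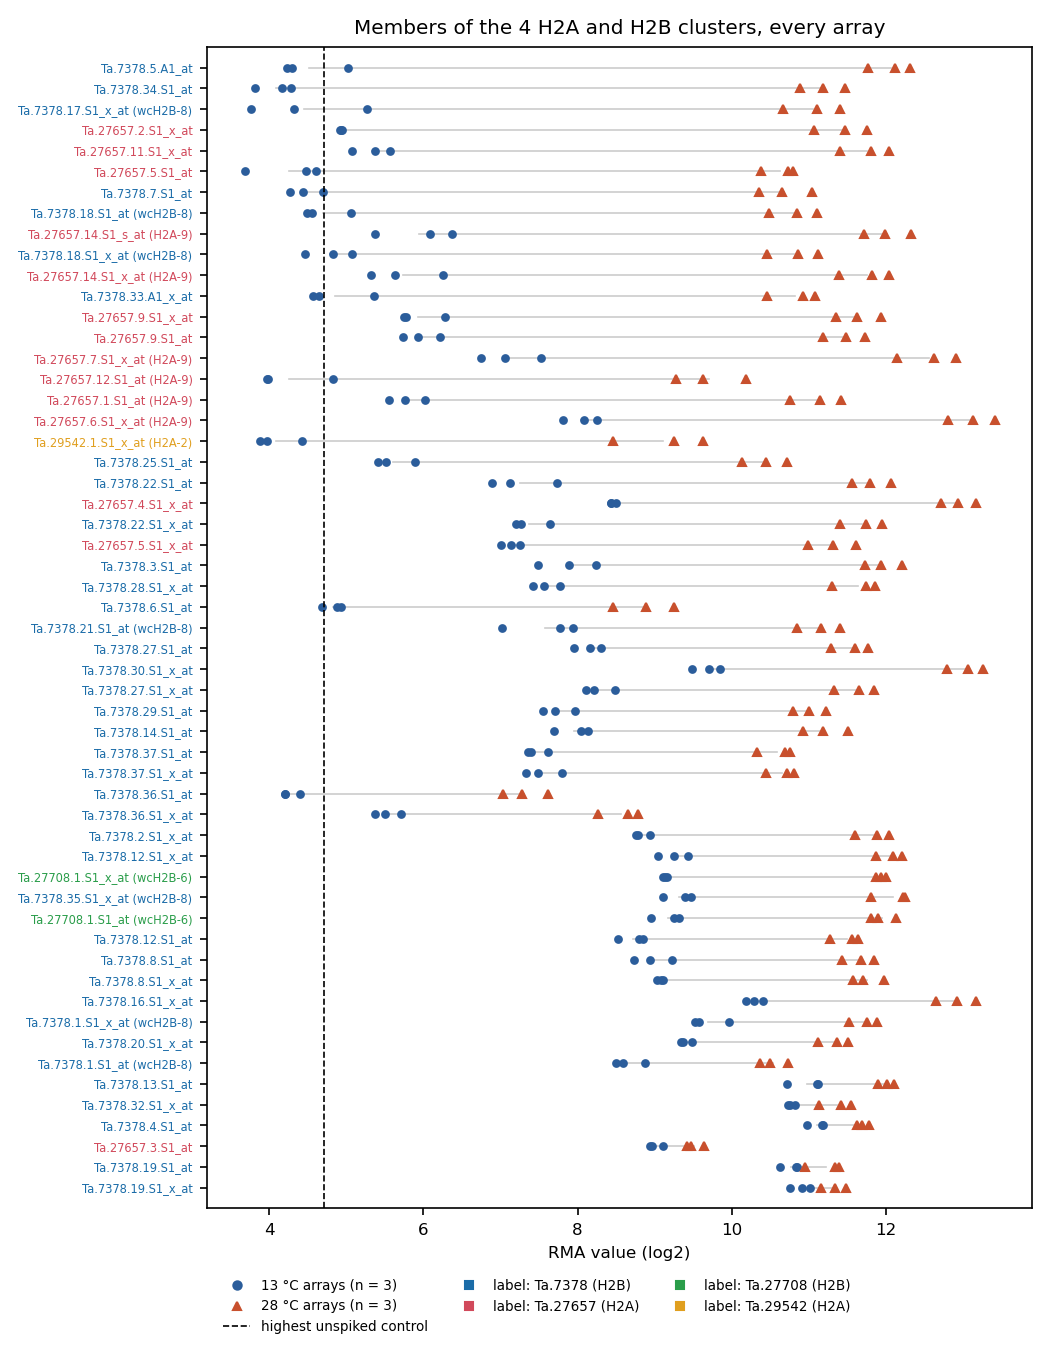
RMA values (log2, horizontal axis) of the 55 histone probe sets on each of the 6 arrays, sorted by difference; circles are the 13 °C arrays, triangles the 28 °C arrays, grey lines join the group means, and label colours give the cluster. Each row has all circles left of all triangles, with differences from -7.56 at the top to -0.44 at the bottom, and 9 rows have a 13 °C mean left of the dashed line at 4.71, the highest unspiked control.

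Histone probe sets made up a visible share of the most lowered probe sets on the array. These shares are a description only, since the same contrast chose the clusters. Some members are probe sets of the same sub-cluster, so their number is not a number of separate transcripts. Of the 419 tested probe sets that were at least 8-fold lower at 13 °C, 38 were members (9.07% of those probe sets and 69.1% of the members). Of the 81 that were at least 32-fold lower, 19 were members (23.5% and 34.5%). Of the 38 that were at least 64-fold lower, 11 were members (28.9% and 20.0%). With values below the highest unspiked control set to its level, members were 37 of the 355 probe sets at least 8-fold lower, 17 of the 56 at least 32-fold lower and 7 of the 20 at least 64-fold lower.

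H2A cluster Ta.27657 was the more evenly lowered of the larger clusters. Its 14 probe sets had a median difference of -5.48, and 13 of them lay between -6.50 and -4.17. On Ta.27657.14.S1_s_at, the most lowered probe set of H2A-9, the values were 6.09, 6.37 and 5.37 at 13 °C and 12.32, 11.71 and 11.99 at 28 °C, a difference of -6.07 ± 0.25 (SE). The groups lay far apart, and array 3 was the lowest at 13 °C. The brightest H2A-9 probe set, Ta.27657.6.S1_x_at, read 7.81, 8.08 and 8.25 at 13 °C against 13.41, 12.81 and 13.13 at 28 °C, a difference of -5.07 ± 0.17. Its 13 °C values were well above the unspiked controls, so background did not limit this difference.

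The remaining probe sets of H2A-9 gave similar differences at other signal levels. Ta.27657.1.S1_at read 5.55, 5.76 and 6.02 against 11.42, 10.75 and 11.15 (-5.33 ± 0.18), and Ta.27657.7.S1_x_at read 6.74, 7.53 and 7.06 against 12.91, 12.15 and 12.62 (-5.45 ± 0.23). Ta.27657.14.S1_x_at differed by -6.02 ± 0.24. On Ta.27657.12.S1_at, 2 of the 3 arrays at 13 °C were below the highest unspiked control, and the difference of -5.44 became -4.95 when those arrays were set to that level. The 6 differences of H2A-9 thus spanned 0.998 on the log2 scale. Among the unpaired probe sets of the cluster, the most lowered was Ta.27657.2.S1_x_at, at 4.94, 4.93 and 4.91 against 11.75, 11.07 and 11.48 (-6.50 ± 0.16), followed by Ta.27657.11.S1_x_at at 5.37, 5.56 and 5.07 against 12.05, 11.40 and 11.80 (-6.42 ± 0.18). The groups were far apart on both, and at 13 °C the former lay just above the unspiked controls.

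H2A-2, on the single probe set of cluster Ta.29542, was at 3.97, 4.43 and 3.88 at 13 °C and at 9.63, 8.46 and 9.26 at 28 °C. All 3 arrays at 13 °C were below the highest unspiked control, so the difference of -5.02 ± 0.27 has only a bound, at least 21.2-fold (-4.41). The 28 °C arrays also differed among themselves by 1.16 between the highest and the lowest, the widest span of any member at that temperature.

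Another H2A gene lies outside these clusters. Other histone, DNA replication and chromatin names were searched for, which could reach only the 1273 tested probe sets paired with a gene. H2A-3 (LOC732713) was the single gene found by this list, with 2 probe sets, of which 1 was lower, 0 higher and 1 did not pass. On the first its values were 8.96, 9.13 and 8.98 at 13 °C and 11.54, 10.75 and 11.23 at 28 °C (difference -2.16 ± 0.18 SE, limma adjusted p = 2.1e-05). The probe set shared among transcripts read 6.92, 7.29 and 7.21 against 6.87, 6.95 and 7.04, overlapping, with a difference of 0.18 (limma adjusted p = 0.27). The median of the list, -0.99, is the midpoint of these 2 unlike differences and describes neither. A lower call was made for 15.1% of all tested probe sets.

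The H2B cluster Ta.7378 ranged most widely. Its 38 probe sets differed by -7.56 to -0.44, with a median of -3.19. The most lowered member of all, Ta.7378.5.A1_at, was at 4.29, 5.02 and 4.22 at 13 °C and at 12.31, 11.77 and 12.12 at 28 °C. Of its 13 °C arrays, 2 were below the highest unspiked control, and with those set to that level the difference of -7.56 ± 0.22 became -7.26, or 153-fold. On Ta.7378.34.S1_at all 3 arrays at 13 °C were below it, at 4.16, 4.29 and 3.82 against 11.47, 10.89 and 11.19, which makes the fall at least 89.0-fold. Neither of these members is paired with a gene. Members with an A in place of the S before the suffix numbered 2, Ta.7378.5.A1_at and Ta.7378.33.A1_x_at, and the latter differed by -5.96 ± 0.23, or -5.89 from the level of the highest unspiked control.

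Probe sets paired with wcH2B-8 did not agree on the size of its fall. Ta.7378.1.S1_at read 8.50, 8.87 and 8.59 at 13 °C and 10.73, 10.37 and 10.50 at 28 °C, a difference of -1.88 ± 0.13 (SE). On Ta.7378.17.S1_x_at, paired with the same gene, the values were 3.77, 5.27 and 4.32 against 11.40, 10.67 and 11.11, a difference of -6.61 ± 0.34, or -6.16 with the 2 arrays below the highest unspiked control set to its level. The 13 °C arrays were more scattered on the latter than on any other member, with array 2 the highest.

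Between these extremes, the wcH2B-8 probe sets formed steps rather than a common value. Ta.7378.18.S1_at (-6.11 ± 0.19) and Ta.7378.18.S1_x_at (-6.02 ± 0.19) were close to the most lowered one, at -5.99 and -5.94 from the level of the highest unspiked control. Ta.7378.21.S1_at read 7.02, 7.94 and 7.77 against 11.41, 10.85 and 11.16 (-3.56 ± 0.23), and Ta.7378.35.S1_x_at read 9.39, 9.47 and 9.10 against 12.25, 11.81 and 12.22 (-2.77 ± 0.15). Ta.7378.1.S1_x_at differed by -2.03 ± 0.14. The 7 differences spanned 4.73, against 0.998 for the 6 of H2A-9. Levels at 28 °C were alike in range, 10.53 to 12.09, while those at 13 °C ran from 4.45 to 9.69. One value for wcH2B-8 therefore cannot be given from this array.

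The other H2B gene, wcH2B-6, gave nearly equal values on both probe sets of cluster Ta.27708. Ta.27708.1.S1_at was at 9.32, 8.95 and 9.26 at 13 °C and at 12.13, 11.80 and 11.90 at 28 °C (-2.77 ± 0.13 SE). Ta.27708.1.S1_x_at was at 9.11, 9.16 and 9.14 against 12.004, 11.87 and 11.93 (-2.80 ± 0.083). Its 3 arrays at 13 °C fell within 0.042 of each other, and the SE was the smallest of any member. All values of wcH2B-6 were far above the unspiked controls.

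**Figure D2:**
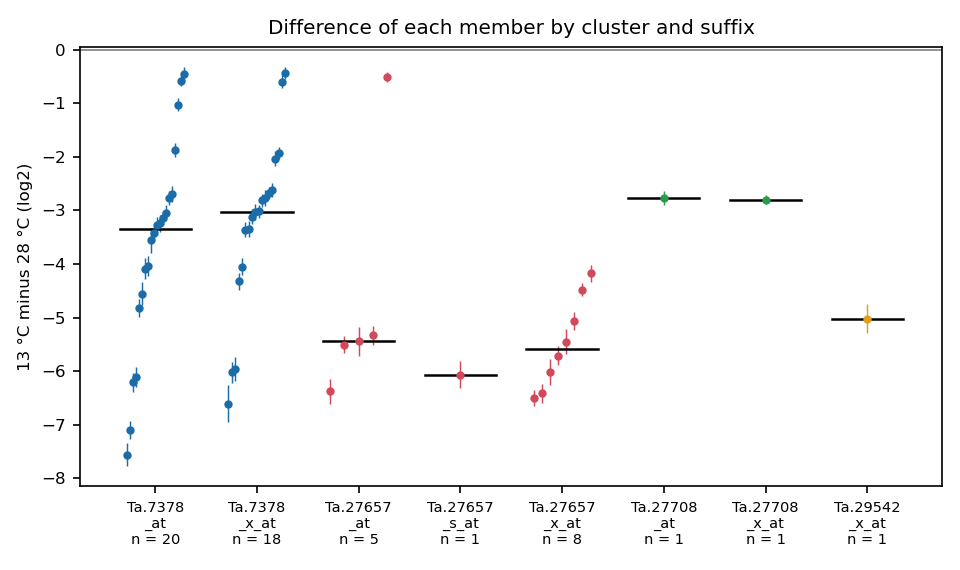
Difference between temperatures (13 °C minus 28 °C, log2, vertical axis) of each histone probe set by cluster and identifier suffix; points are probe sets, vertical bars the limma SE (3 arrays per temperature), and black lines the medians. H2A cluster Ta.27657 lies near its median of -5.48 apart from 1 probe set at -0.51, while H2B cluster Ta.7378 spreads from -7.56 to -0.44.

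A small set of members changed little. In the ordered differences the widest step, 0.85, lay between Ta.7378.1.S1_at at -1.88 and Ta.7378.13.S1_at at -1.03, which leaves 6 members above it and 49 below. Of these 6, Ta.7378.13.S1_at read 10.72, 11.12 and 11.10 against 12.11, 11.90 and 12.02, and Ta.7378.4.S1_at read 11.18, 11.18 and 10.98 against 11.79, 11.69 and 11.62 (-0.59 ± 0.10). The H2A member Ta.27657.3.S1_at read 8.94, 8.96 and 9.10 against 9.42, 9.65 and 9.47 (-0.51 ± 0.10). These groups still did not overlap.

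Ta.7378.32.S1_x_at (-0.60 ± 0.12) and the pair Ta.7378.19.S1_at (10.63, 10.85 and 10.83 against 11.39, 10.95 and 11.34; -0.46 ± 0.13) and Ta.7378.19.S1_x_at (-0.44 ± 0.11) complete the set. On Ta.7378.19.S1_at the highest 13 °C array and the lowest 28 °C array were 0.096 apart, the narrowest gap of any member. Its limma call was lost without 13 °C array 1 (-0.38), 13 °C array 3 (-0.48), 28 °C array 1 (-0.37) or 28 °C array 3 (-0.40), and that of Ta.7378.19.S1_x_at without 28 °C array 1 (-0.36) or 28 °C array 3 (-0.43). No other member lost its call when 1 array was left out. With poly-A scaling these 6 members were the ones that did not pass, at an SE of 0.54. In none of the 14 alternatives did any of the 55 differences turn positive.

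Levels of the members were less spread out at 28 °C than at 13 °C. Probe sets differ in how strongly their probes bind, so the level of one does not rank its transcript against another, and the same 55 probe sets were compared in both groups. Their means had an SD of 1.08 over the members at 28 °C and of 2.14 at 13 °C. At 28 °C the lowest was 7.31, the median 11.47 and the highest 13.12. At 13 °C the lowest was 4.09, the median 7.58 and the highest 11.11. Of the members, 9 had a 13 °C mean below the highest unspiked control and 0 had such a mean at 28 °C. In 12 members at least 1 array at 13 °C was below it, which makes the fitted size of the fall uncertain, and in the 5 with all 3 below it the size has only a bound.

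A bright signal at 28 °C came with any size of difference. In the 39 members between 10 and 12 at 28 °C, the median difference was -3.56, with a range from -7.09 to -0.44. Of these, 27 (69.2%) were at least 8-fold lower at 13 °C, compared with 5.06% of all 2589 tested probe sets in that range of levels. In the 10 members above 12 the median was -3.92 (-7.56 to -1.03) and 6 were at least 8-fold lower, against 4.49% of 646 tested probe sets. The 5 members between 8 and 10 had a median of -4.04, and the dimmest member, Ta.7378.36.S1_at, was at 7.31 at 28 °C and at least 6.08-fold lower at 13 °C (-2.60), where none of its 3 arrays reached the background level of 4.71. Grouped by level at 13 °C, the 9 members at background had a median difference of -6.21 (-5.98 with their values set to the highest unspiked control), the 17 between 8 and 10 a median of -2.77 and the 6 above 10 a median of -0.59. Since the 13 °C level is part of the difference, this grouping is a description. So are the shares by level at 28 °C, because the same difference chose the clusters.

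**Figure D3:**
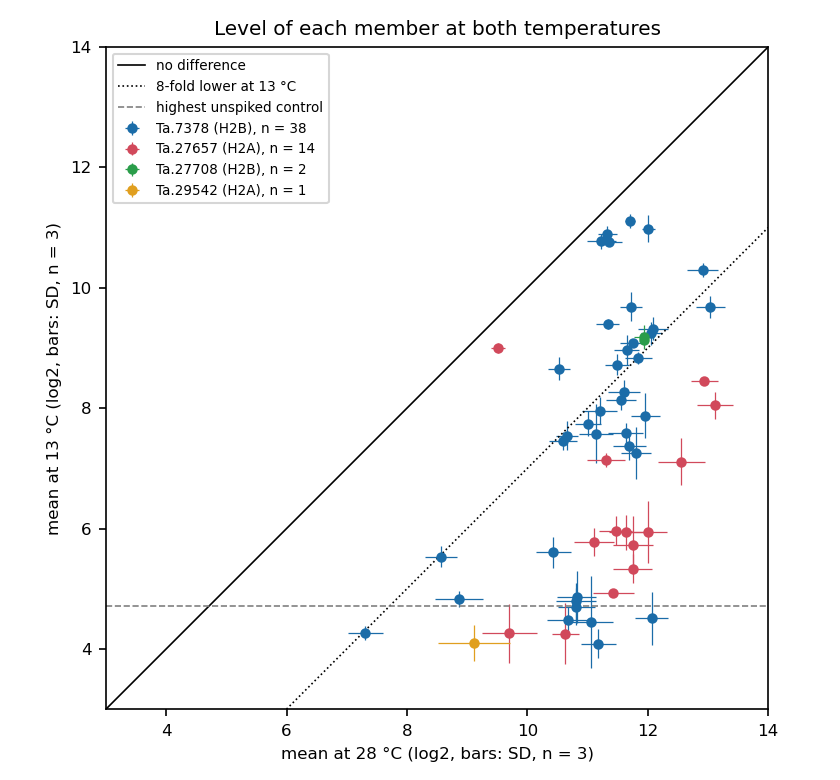
Mean log2 value at 13 °C (vertical axis) against 28 °C (horizontal axis) for the 55 histone probe sets, coloured by cluster, with SD bars (n = 3); the solid line marks no difference, the dotted line an 8-fold fall, and the dashed line the highest unspiked control. All points lie below the solid line. They run from 7.31 to 13.12 at 28 °C (SD over members 1.08) and from 4.09 to 11.11 at 13 °C (SD 2.14).

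Differences covered similar ranges whichever suffix a probe set carried. In Affymetrix names _at marks probes meant for a single transcript, _s_at probes shared by transcripts of several genes and _x_at probes that may also bind unrelated transcripts. The 26 members ending in _at had a median difference of -3.49 (-7.56 to -0.46), and the 28 ending in _x_at a median of -3.71 (-6.61 to -0.44). The single _s_at member was Ta.27657.14.S1_s_at. Within cluster Ta.7378 the medians were -3.34 for 20 _at and -3.02 for 18 _x_at probe sets. Within Ta.27657 they were -5.44 for 5 and -5.58 for 8. No test was run between suffixes, because members of a cluster share sequence and are not replicates.

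The 13 sub-clusters with an _at or _s_at probe set and an _x_at one allow a closer look. Over all 13 the median gap between the differences was 0.049. In 9 of the 13 the differences were within 0.15 of each other. Of the other 4, sub-clusters 22 and 1 of Ta.7378 and 9 of Ta.27657 were apart by 0.23, 0.16 and 0.21. The widest gap was in H2A sub-cluster 5 of Ta.27657. There Ta.27657.5.S1_at read 3.68, 4.48 and 4.61 at 13 °C and 10.80, 10.37 and 10.73 at 28 °C (-6.38 ± 0.23). All 3 of its 13 °C arrays were below the highest unspiked control, so the fall has only a bound, at least 60.8-fold (-5.93). Its partner Ta.27657.5.S1_x_at read 7.14, 7.01 and 7.25 against 11.62, 10.99 and 11.32 (-4.17 ± 0.15). These 13 °C values were all above the unspiked controls.

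**Figure D4:**
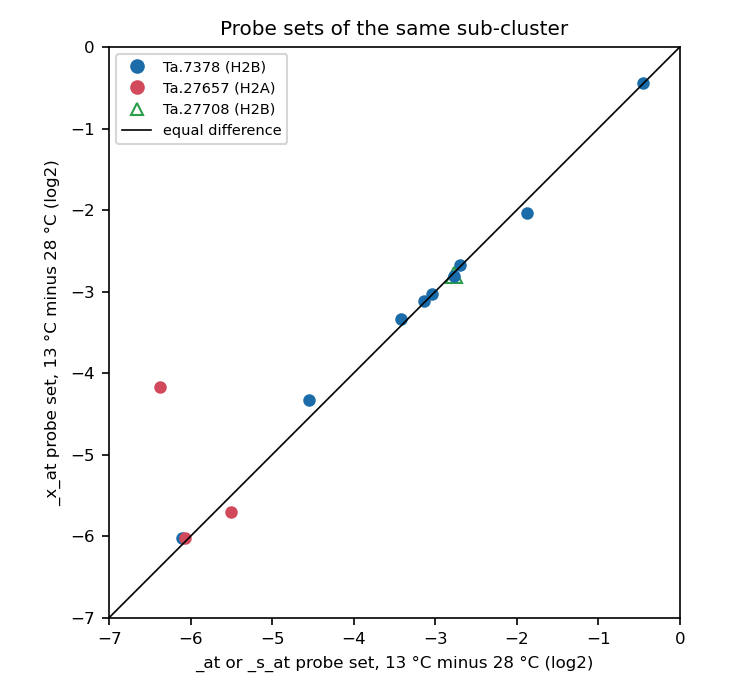
Difference between temperatures (13 °C minus 28 °C, log2) of the _x_at probe set (vertical axis) against that of the _at or _s_at probe set (horizontal axis) of the same sub-cluster, for 13 sub-clusters coloured by cluster; the line marks equal differences. Most points lie near the line, and the farthest from it is an H2A sub-cluster at -6.38 (a bound of -5.93) and -4.17.

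The 28 °C arrays were ordered alike across most members, a measure that does not enter the difference between the groups. At 28 °C, array 1 was the highest on 54 of 55 members and array 2 the lowest on 53. The full order of array 1, array 3 and array 2 from high to low was found on 53 members (96.4%), against 19.9% of all tested probe sets and 28.9% of the 3186 other probe sets above 10 at 28 °C. The exceptions were Ta.7378.4.S1_at and Ta.27657.3.S1_at, both among the 6 least changed. The median deviation from the 28 °C mean was 0.24 for array 1, 0.029 for array 3 and -0.28 for array 2, while over all tested probe sets no array at 28 °C had a median deviation beyond 0.007. In the 381 non-members that were at least 8-fold lower, these medians were 0.19, 0.017 and -0.21. The same full order was found on 73.2% of those non-members. The order was therefore not particular to the histone clusters, which were themselves chosen by their difference. Members share sequence, so they are not independent of each other and no test was made.

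The step from array 1 to array 2 at 28 °C was wider in the members that were lower at 13 °C. Its median was 0.65 in the 19 members at least 32-fold lower, 0.52 in the 19 between 8-fold and 32-fold, 0.37 in the next 11 and 0.27 in the 6 least changed. At 13 °C array 2 was the highest on 41 of 55 members (74.5%), with a median deviation of 0.16. In Ta.7378 it was the highest on 33 of 38. It was also the highest on 34.8% of all tested probe sets and on 43.5% of the other probe sets above 10 at 28 °C. Array 1 was the lowest on 34 members (61.8%), with a median deviation of -0.14, against 35.7% and 41.6% of those probe sets. In Ta.27657 the 13 °C order was mixed, with array 2 highest on 6 and array 3 highest on 6 of 14. The 2 probe sets of Ta.27708 differed in their order. Hence a shared order was clear at 28 °C and, for Ta.7378, in part at 13 °C.

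**Figure D5:**
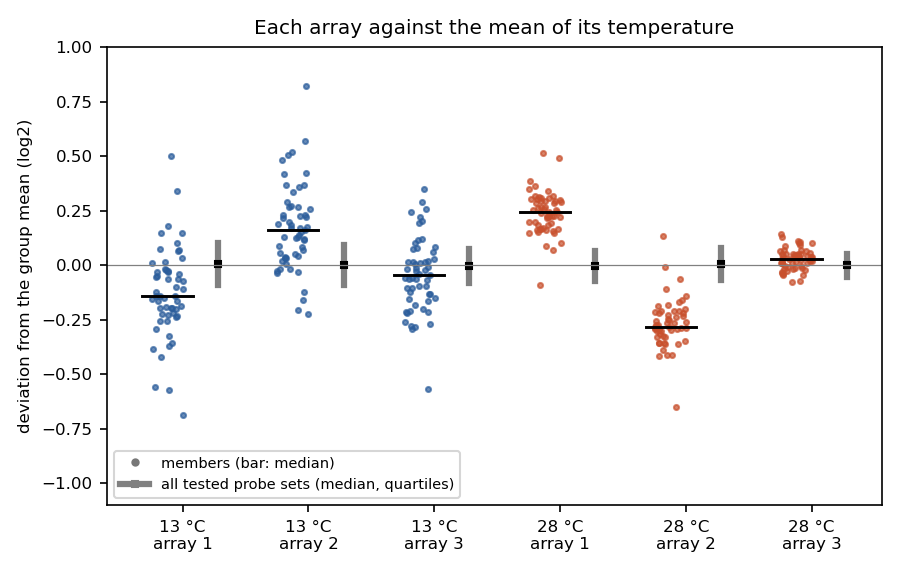
Deviation of each array from the mean of its temperature (log2, vertical axis) for the 55 histone probe sets (points, black bar for the median) beside the median and quartiles of all tested probe sets (square and grey bar). At 28 °C the members sit high on array 1 (median 0.24) and low on array 2 (median -0.28), while the squares stay near 0.

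RNA quality and tissue markers were read beside the histones. Control transcripts with probe sets at both ends show how complete the RNA was, since a wider gap between the 3-prime and the 5-prime value marks shorter RNA. For glucose-6-phosphate dehydrogenase this gap was wider at 13 °C by 0.90 and for sucrose synthase by 0.84, while for CYP86 the difference was -1.58 (exact permutation p = 0.1 each). Of 7 such transcripts, 4 had a higher 3-prime minus 5-prime value at 13 °C. Among these was GAPDH, whose 3-prime value was the lower one in both groups (-1.88 at 13 °C, -2.32 at 28 °C). Ubiquitin and actin also read lower at the 3-prime end in both groups. CYP86 did so at 13 °C, with a mean of -0.30 against 1.28 at 28 °C. On such transcripts the gap cannot be read as RNA length. Array 2 at 13 °C had the widest gap for sucrose synthase, 7.91 against 6.90 on both other arrays, and was also the array on which most histone members read highest at that temperature. Array 3 at 13 °C, taken alone against the 28 °C arrays, gave a median difference of the members of -3.40. For sucrose synthase the gap of 6.90 on array 3 was still wider than on any 28 °C array (at most 6.44). For glucose-6-phosphate dehydrogenase it was 2.67, against at most 2.49 at 28 °C. For CYP86 it was -0.51, below the 28 °C mean of 1.28. The part of RNA length in the histone differences was not tested.

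Markers of starchy endosperm, which could stay attached to an embryo, gave 1 of 19 probe sets higher at 13 °C, where 18.5% of all tested probe sets were called higher, 0 lower and 18 not past the threshold. The one that passed belongs to an avenin-like protein (0.47, limma adjusted p = 0.0046). In 13 of the 19, among them GBSS, the starch synthase of endosperm, both group means were below the highest unspiked control. The log2 of the summed signal of all 19 lay between 12.10 and 12.31 at 13 °C and between 11.88 and 11.95 at 28 °C. This sum rested mainly on the avenin-like probe set that passed (11.47 at 13 °C, 11.01 at 28 °C) and on AGP-S (10.57 and 10.45). Other probe sets of that avenin-like gene did not pass (-0.27, -0.31 and 0.20), with all means below the highest unspiked control. The part of attached endosperm in the histone result was not tested.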

How the data were processed

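Total RNA of the embryos was labelled as biotinylated cRNA and hybridised to the 1-colour Affymetrix wheat GeneChip, per the labels' protocols. The authors deposited 1 log2 value per probe set and array, and the submitters' processing notes name RMA as the method. RMA makes all arrays follow the same distribution, so a change of total mRNA cannot be read from them. Which software and version ran it, and over which arrays, is not given in the sources used here. The table carries no detection call, and precision is limited by the small number of arrays.

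Of 61290 probe sets, 111 Affymetrix controls were left out and 61179 were tested with limma (version 3.58.1, R 4.3.3): lmFit and eBayes on all 6 arrays, no covariate, two-sided, Benjamini-Hochberg adjustment over all tested probe sets, threshold 0.05. Errors given as SE come from that fit. Recovery of known changes was tested on simulated data. For control probe sets the test was an exact permutation of the arrays, two-sided. Other tables used Python 3.11.15, numpy 2.4.6, scipy 1.17.1 and pandas 2.3.3.

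Genes were named through the platform's annotation, which pairs 1273 tested probe sets with a gene, and the RefSeq gene table of wheat assembly IWGSC CS RefSeq v2.1, from which names alone were taken. Genome positions are left out because the files state no build. Sequences were not analysed here, so the planned promoter motif search was not run. The members, the 3 lists (other histone and replication names, starchy endosperm, late embryo maturation) and the alternatives were chosen with earlier results of these data known. The text names all members paired with a gene, the 2 most and 2 least changed members of each cluster, and other members only where a comparison turned on them, chosen after their values were seen. No pairing by replicate number was seen: same-numbered deviations from the group means correlated at 0.012 to 0.044 across probe sets. Differently numbered ones correlated at -0.11 to 0.093. Whether arrays shared plants or a seed lot was not tested.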

Additional observations from a re-analysis of the deposited data

How the results depend on the processing

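The 55 members stayed lower at 13 °C under all 14 alternatives, 0 were called higher under any, and the number past the threshold ranged from 49 to 55. These counts are a description, since the same contrast on these arrays chose the clusters. With single arrays left out, 53 to 55 members were called lower, 49 to 50 of them at least 2-fold, with a median difference between -3.74 and -3.32, and 16474 to 19571 of all tested probe sets passed. Scaling to the hybridisation controls moved the median difference of the members to -4.19 and that to the poly-A controls to -4.02, and 12469 and 3002 of all tested probe sets then passed, against 20517 with the deposited values. Both scalings shift every probe set of an array alike, so the median of the members relative to all probe sets was -3.62 in each of these and with the deposited values. Setting values to the highest unspiked control left 53 members past the threshold and the median at -3.56, and moved H2A-2 to -4.41. With the replicate number as a block, 55 members and 20226 of all tested probe sets passed, and no member's call changed. Leaving out dim probe sets, centring arrays on their median and limma-trend with a robust prior kept all 55 calls. Leaving out 13 °C arrays 1 and 2 together, an alternative added after seeing the data, left 1 array at 13 °C, assumed to vary like those at 28 °C, and 51 of the 55 lower members past the threshold. Signal near background limits the size of the fall in 12 members.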

Other observations

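The order of the 28 °C arrays seen in the histones was also common among other strongly lowered probe sets. Of the 381 non-members that were at least 8-fold lower at 13 °C, 279 (73.2%) had array 1 highest, array 3 between and array 2 lowest at 28 °C, compared with 19.9% of all tested probe sets.

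Late embryo maturation genes, which encode small hydrophilic proteins that accumulate as seeds dry, showed the opposite order. In that list of 10 probe sets of 5 genes, 7 were higher at 13 °C, where 18.5% of all tested probe sets were called higher, 1 was lower and 2 did not pass, with a median difference of 1.59. The lower one, of COR410, was at 3.26 against 3.74, below the highest unspiked control of 4.71 in both groups. At 28 °C, 9 of the 10 had array 2 highest and array 1 lowest, with array 3 between. That was the most common order on the array at 28 °C, at 23.4% of all tested probe sets. Among the 3186 probe sets above 10 at 28 °C outside the histone clusters it was 34.3%. The 10 probe sets share genes, so they are not independent. The probe set of Em with the largest signal read 11.14, 11.85 and 11.58 on arrays 1, 2 and 3 at 28 °C, where the brightest H2A-9 probe set read 13.41, 12.81 and 13.13. At 13 °C array 1 was the lowest on all 10 late maturation probe sets and on 34 of the 55 histone members, against 35.7% of all tested. The opposite order was therefore not seen at 13 °C. These are values from 3 arrays per temperature, and no test was made of them.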
